A study of Mus musculus with 6 samples.

Results

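The redox enzymes Duox1, Prdx2 and Gsta4 each had 1 probe with 10 spots on every array of a circRNA study in the mouse muscle cell line C2C12. These 3 probes are among the 50 gene probes of the design, which otherwise carries 14236 circRNA probes. They were found through the transcript that the scanner tables give for each probe, NM_001099297 for Duox1 (A_51_P475138), NM_011563 for Prdx2 (A_51_P147207) and NM_010357 for Gsta4 (A_51_P112223). The 3 genes were picked with their values in both groups known, so their differences are given below as a description, without a test.

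C2C12 cells are muscle precursors that stop dividing and fuse into multinucleate myotubes when serum is withdrawn. The study set 3 arrays of myoblasts, kept in medium with 10% fetal bovine serum, against 3 arrays of myotubes, obtained after a switch to 2% horse serum. All 6 samples are of the same unmodified cell line, and the days of differentiation are not given in the sources used here. Total RNA was labelled with Cy3 and hybridised to 1-colour arrays; the design text describes 3 separate experiments for each state. The sources do not say if linear transcripts were digested first, so the values are given as probe signals and not as amounts of messenger RNA.

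Duox1, Prdx2 and Gsta4 have different roles in the making and handling of reactive oxygen products. Dual oxidase 1 (Duox1) is a membrane NADPH oxidase, regulated by calcium, that releases hydrogen peroxide and is best known from thyroid and airway epithelium. Peroxiredoxin 2 (Prdx2) is a cytosolic peroxidase that reduces hydrogen peroxide through a reactive cysteine, which thioredoxin then restores. Glutathione S-transferase alpha 4 (Gsta4) couples glutathione to reactive aldehydes, such as hydroxynonenal, that form when membrane lipids are oxidised.

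The 3 probes behaved differently between the states. Duox1 signal lay near background on the myoblast arrays and was higher on every myotube array, Gsta4 was 4.09-fold lower in myotubes after scaling, and the Prdx2 values of the states overlapped once the arrays were scaled. The sign for Duox1 changed under 1 setting, normexp background correction (offset 50) with the 75th percentile. The scaled log2 difference was then -0.056, and the groups overlapped. Processed signal here is the scanner software's background-subtracted brightness in scanner units. Scaled values are log2 of that signal minus the 75th percentile of all non-control probes on that array, so they are relative to the bulk of the probes. That percentile was itself higher in myotubes, at 48.8 ± 9.62 against 33.3 ± 3.14 in myoblasts (SD, n = 3 each), a mean log2 difference of 0.53. Unscaled and scaled differences of any gene therefore differ by that amount, and both are given.

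The labels could be checked against few genes. These were listed with earlier results of these data known, so the check is not independent. Of 5 myoblast and 15 myotube marker genes looked up, only Hspb7, a small heat shock protein of muscle, had a probe, and its scaled log2 mean was -1.58 ± 0.53 in myoblasts against 0.99 ± 0.53 in myotubes (SD over 3 arrays each). No marker of fat, bone, fibroblast, epithelial or red blood cells had one, so the part of other cells in the results was not tested. Slide rows were read from the array barcodes, whose numbers are taken here as row and position. By this reading myotube 1 shared a slide row with the 3 myoblast arrays, and myotubes 2 and 3 lay in the other row. The 75th percentile was 30.2 to 36.5 in myoblasts, 37.7 on myotube 1, and 53.5 and 55.1 on myotubes 2 and 3.

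**Figure D1:**
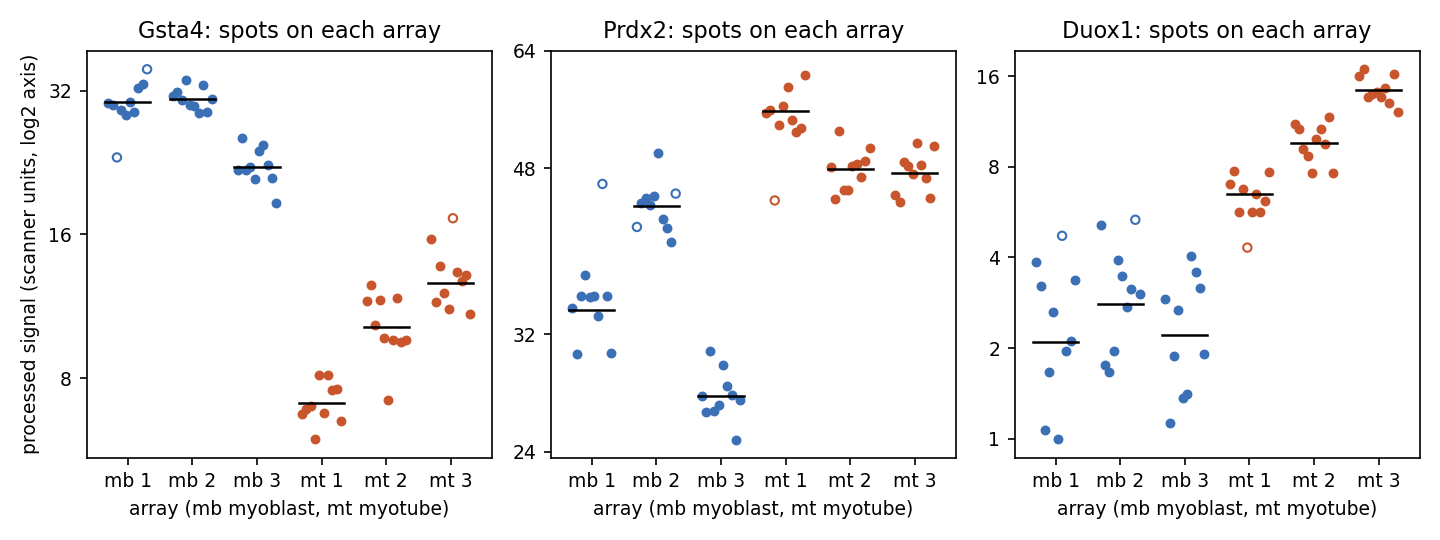
Processed signal (scanner units, log2 axis) of each of the 10 spots on the 6 arrays, one panel a gene with its own axis range; filled points were used, open points carried an outlier flag, and black lines are the array means on the log2 scale. Gsta4 arrays fall from 22.3 to 30.8 in myoblasts to 7.12 to 12.7 in myotubes, Duox1 arrays go the other way, and Prdx2 spots of the groups overlap.

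For Duox1, the oxidase that makes hydrogen peroxide, the mean processed signal over the spots was 2.32, 2.98 and 2.41 on the arrays of myoblasts 1, 2 and 3. On the arrays of myotubes 1, 2 and 3 it was 6.54, 9.67 and 14.4. All myotube arrays lay above all myoblast arrays, and the myotube arrays were spread more widely, with myotube 3 the highest. The mean was 2.57 ± 0.358 in myoblasts against 10.2 ± 3.97 in myotubes (SD, n = 3 arrays each). In bulk RNA such as this, more RNA per cell and a greater share of cells that hold it cannot be told apart.

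The detection flags showed Duox1 at the edge of what the arrays could measure in myoblasts. Of its 30 myoblast spots, 2 were flagged well above background, and both of these carried an outlier flag, so none of the 28 remaining spots was. In myotubes 29 of 30 spots were well above background, all but an outlier-flagged spot of myotube 1. This flag was more common on the myotube arrays in general. Of the 500 gene probe spots of an array, it was set on 237, 230 and 213 in myoblasts 1 to 3. In myotubes 1 to 3 it was set on 267, 282 and 320. The weaker flag for a positive and significant signal was set on 29 of 30 myoblast spots and on all 30 myotube spots. Of the 30 myoblast spots, 21 were brighter than the brightest of the 77 negative control spots of their own array, against 30 of 30 in myotubes. Each array also had 150 spots of probes named as negative. Of these, 12, 9 and 10 were flagged well above background in myoblasts 1 to 3, and 12, 12 and 13 in myotubes 1 to 3. The myoblast signal of Duox1 was thus measurable by the weaker flag and only a bound by the stronger one.

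**Figure D2:**
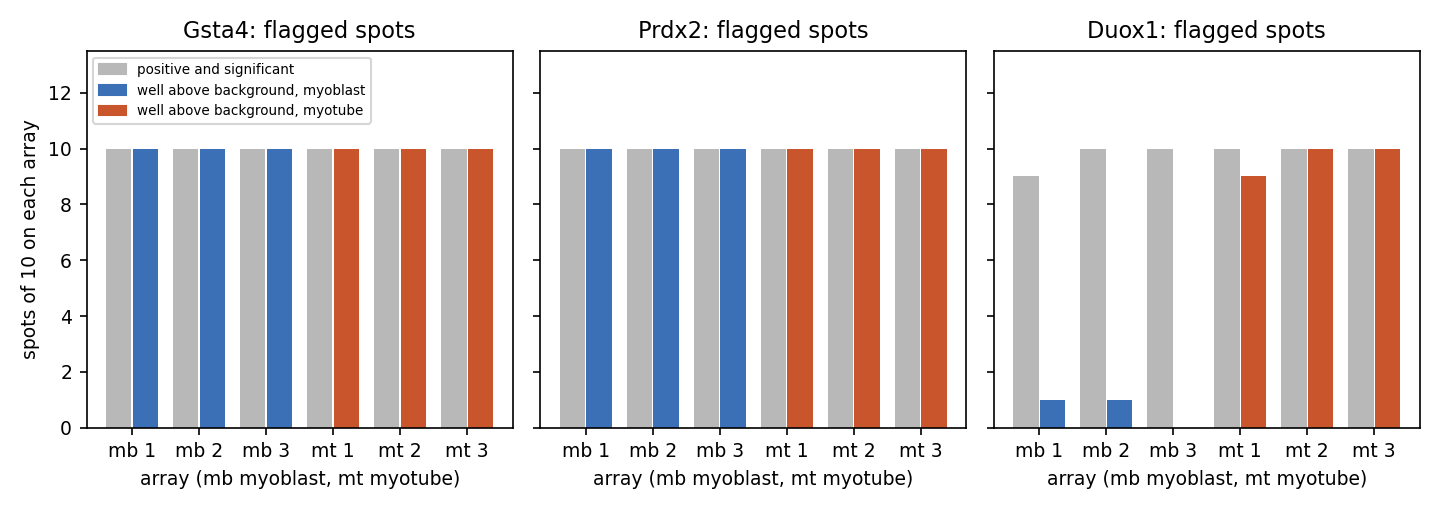
Number of the 10 spots of each gene on each array that carry the positive-and-significant flag (grey) or the well-above-background flag (coloured), outlier-flagged spots included. Gsta4 and Prdx2 spots carry both flags on every array, whereas Duox1 has 1, 1 and 0 well-above-background spots in myoblasts 1 to 3 against 9, 10 and 10 in myotubes 1 to 3.

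Because Duox1 had no usable well-above-background spot in myoblasts, its fold is given as a bound for the scaled processed signal only. Each myoblast array was entered at the lowest signal of any probe well above background, 4.30, 4.38 and 4.55 in processed units. Duox1 was then 1.51-fold higher in myotubes, a log2 difference of 0.59. Other background settings, given below, went under this value. Single spots without the flag could exceed the entries, as a Duox1 spot of myoblast 2 had 5.12. The measured scaled log2 values were -3.99, -3.70 and -3.77 in myoblasts and -2.54, -2.48 and -1.94 in myotubes. Their means were -3.82 and -2.32, a measured log2 difference of 1.50, and single pairs of arrays differed by 1.17 to 2.04. Without scaling the log2 difference was 2.03, and within the slide row of myotube 1 and the myoblast arrays the scaled one was 1.28.

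As a ratio between the states, the raw spots of Duox1 moved by less than the background-subtracted ones. Mean spot brightness before any subtraction was 16.7, 17.8 and 17.4 on the myoblast arrays, over a local background of 11.7, 12.1 and 12.5. In myotubes it was 22.5, 24.4 and 28.8 over a local background of 11.5, 11.4 and 11.7. The spot therefore stood at 1.40 to 1.47 times its surroundings in myoblasts and at 1.96 to 2.46 times in myotubes. These ratios overstate the signal, since the scanner software took off more than the local background. Its background-subtracted signal averaged 2.54 ± 0.384 in myoblasts and 10.2 ± 3.89 in myotubes (SD, n = 3 arrays each). The scaled log2 difference changed with the background subtraction. It was 0.13 with no subtraction and turned to -0.056 after normexp correction (offset 50) with the 75th percentile, and the groups overlapped in both. After normexp correction with quantile normalization it was 0.12.

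Spot by spot, Duox1 was higher in myotubes at all 10 positions of the array, with the groups apart at each of the 10, both scaled and unscaled. The scaled log2 difference at single positions ran from 0.94 to 2.06. These spots share their RNA sample within an array, so they show the evenness of the measurement and are no replicates of the states. The coefficient of variation over the spots of an array was 37.6% to 44.0% in myoblasts and 10.5% to 14.6% in myotubes.

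Prdx2, the thioredoxin-dependent peroxidase, was well above background on all 30 spots of both groups. Its mean processed signal was 34.0, 43.9 and 27.6 on the arrays of myoblasts 1, 2 and 3, and 55.3, 47.9 and 47.5 on those of myotubes 1, 2 and 3. Before scaling, every myotube array thus lay above every myoblast array, as for 42.3% of the 26 tested gene probes, Prdx2 and Duox1 among them, though myotube 3 exceeded myoblast 2 by only 1.08-fold. The group means were 35.1 ± 8.24 and 50.3 ± 4.39 (SD, n = 3 each), an unscaled log2 difference of 0.54, which is about the 0.53 by which the percentile itself differed.

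After scaling, Prdx2 did not separate the states. Its scaled log2 values were 0.026, 0.27 and -0.13 in myoblasts and 0.55, -0.16 and -0.22 in myotubes. Myotube 1 was the highest of all 6 arrays, and myotubes 2 and 3 were the lowest. Myoblasts averaged 0.052 ± 0.20 and myotubes 0.059 ± 0.43 (SD, n = 3 each), a difference of 0.0062 (SE 0.24), while pairs of arrays differed by -0.48 to 0.69. Such a spread does not show that Prdx2 was equal in the states.

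The Prdx2 difference had no stable sign: over 15 alternative settings, no scaling included, it was above 0 in 7 and below 0 in 8. Leaving out myotube 1 gave -0.24, with both remaining myotube arrays below all myoblast arrays, and leaving out other single arrays gave -0.087 to 0.14. Within the slide row that holds myotube 1 and the myoblast arrays it was 0.50. With slide row as a block it was 0.50 (SE 0.23), which is the same comparison, since the other row holds no myoblast array. Both are counted among the 7 settings above 0. Slide row and array cannot be told apart here, since only myotube 1 represents myotubes in that row. At the 6 spot positions used on all 6 arrays, 3 scaled differences were above 0, and they ran from -0.052 to 0.045.

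Within an array the Prdx2 spots were even. The coefficient of variation over the spots of an array was 4.76% to 6.66%. On the log2 scale the pooled SD between spots of an array was 0.082. Between arrays of a group, which are separate samples, the SD was 0.25 unscaled and 0.33 scaled. The corresponding SD between spots was 0.15 for Gsta4 and 0.47 for Duox1.

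**Figure D3:**
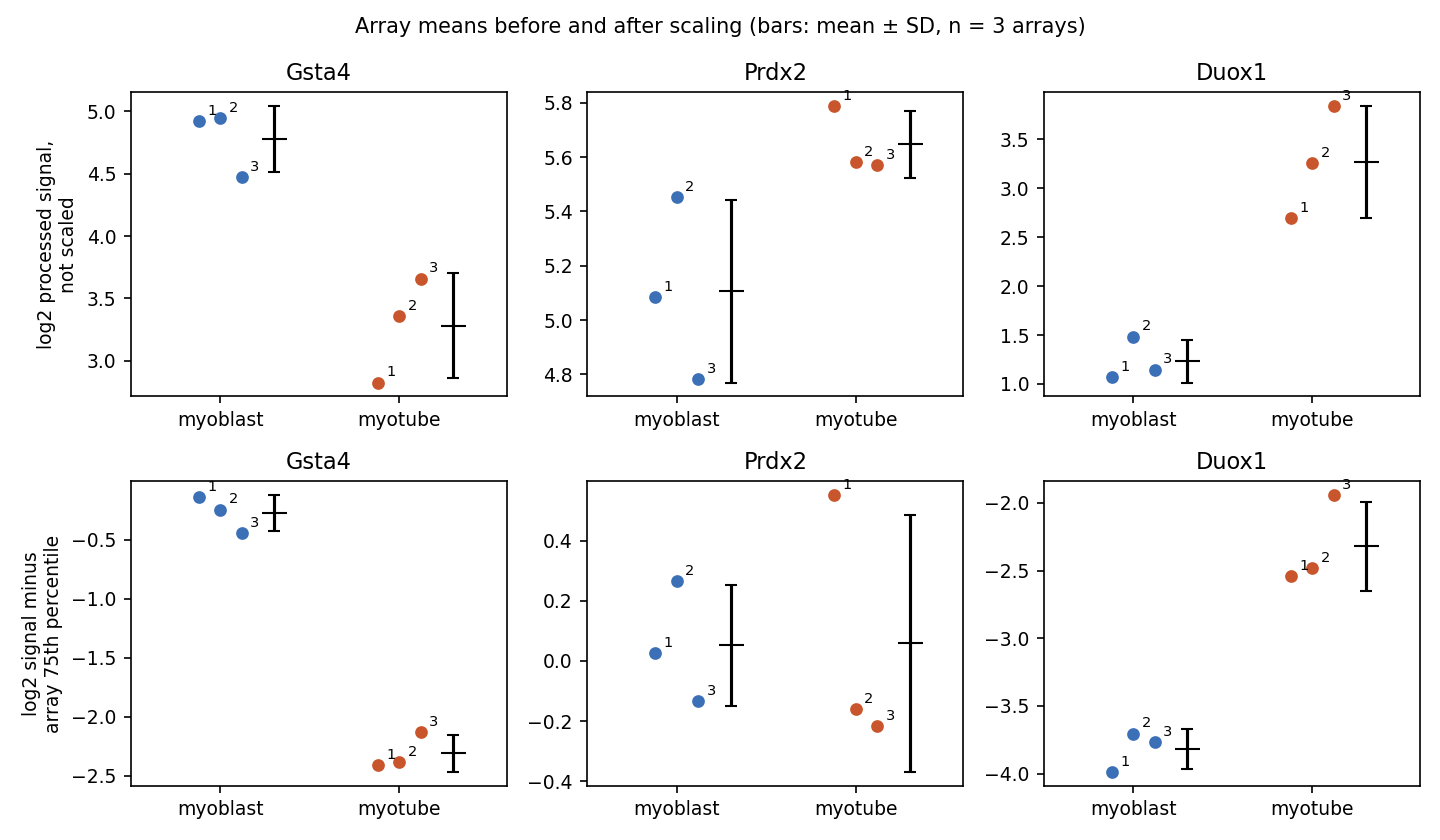
Log2 processed signal of each array before scaling (top row) and after subtraction of the array's 75th percentile (bottom row), with replicate numbers beside the points and mean ± SD (n = 3) to the right of each group; each panel has its own axis range. Gsta4 and Duox1 groups stay apart in both rows, whereas Prdx2 groups are apart by 0.12 before scaling and overlap after it.

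Gsta4, which removes aldehydes of lipid peroxidation, was lower on every myotube array than on any myoblast array. Its mean processed signal was 30.3, 30.8 and 22.3 on the arrays of myoblasts 1, 2 and 3, and 7.12, 10.4 and 12.7 on those of myotubes 1, 2 and 3. The dimmest myoblast array was still 1.76 times as bright as the brightest myotube array, although the myotube arrays were brighter in general, and 15.4% of the tested gene probes, Gsta4 among them, were lower and apart before scaling. The group means were 27.8 ± 4.78 and 10.1 ± 2.80 (SD, n = 3 each), an unscaled log2 difference of -1.50 or 2.83-fold.

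Scaling brought the Gsta4 arrays of each state closer together. The scaled log2 values were -0.14, -0.24 and -0.44 in myoblasts and -2.41, -2.39 and -2.13 in myotubes. Their SD was 0.15 in myoblasts and 0.16 in myotubes, against 0.26 and 0.42 before scaling. The scaled log2 difference was -2.03 (SE 0.17), or 4.09-fold, and pairs of arrays differed by -2.27 to -1.68. Within the slide row shared by myotube 1 and the myoblast arrays the difference was -2.14, and leaving out any 1 array gave -2.12 to -1.96.

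All 60 Gsta4 spots were well above background, and its difference showed at each position of the array. The groups did not overlap at any of the 10 positions, scaled or unscaled, and at the 7 positions used on all 6 arrays the scaled log2 difference ran from -2.10 to -1.89. The coefficient of variation over spots was 5.32% to 8.97% on the myoblast arrays and 9.98% to 15.2% on the dimmer myotube arrays. Mean spot brightness before subtraction was 42.8 ± 4.55 in myoblasts against 25.0 ± 1.64 in myotubes (SD, n = 3 arrays each). The direction held under every scaling and background setting tried, but its size did not: the log2 difference was -1.17 with no subtraction and -0.60 after normexp correction with the 75th percentile.

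Of the 26 tested gene probes, 20 were well above background on all 6 arrays. Among these 20, Gsta4 had the lowest scaled difference and Prdx2 the smallest in absolute size. Duox1 is not among them and has no defined rank, since its myoblast values are only a bound. The median over all 26 was -0.20 scaled and 0.34 unscaled, with 17 below 0 and 9 above 0 after scaling. Scaled groups did not overlap for Gsta4, as for 26.9% of the tested gene probes with myotubes lower. They were apart for 19.2% with myotubes higher, Duox1 among them. Duox1 entered the tested set only through its myotube arrays, so its separation is no result of the comparison. Every tested probe not detected on all 6 arrays was well above background on all 3 myotube arrays. The filter thus favoured probes higher in myotubes. In limma with Benjamini-Hochberg adjustment 38.5% of the tested gene probes and 33.9% of the tested circRNA probes passed 0.05. These shares of gene probes include the 3 genes; of the 23 others, 8 passed in limma, 4 were higher and apart after scaling and 6 were lower and apart. Since the genes were picked from this contrast, nothing is read from their place in it.

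**Figure D4:**
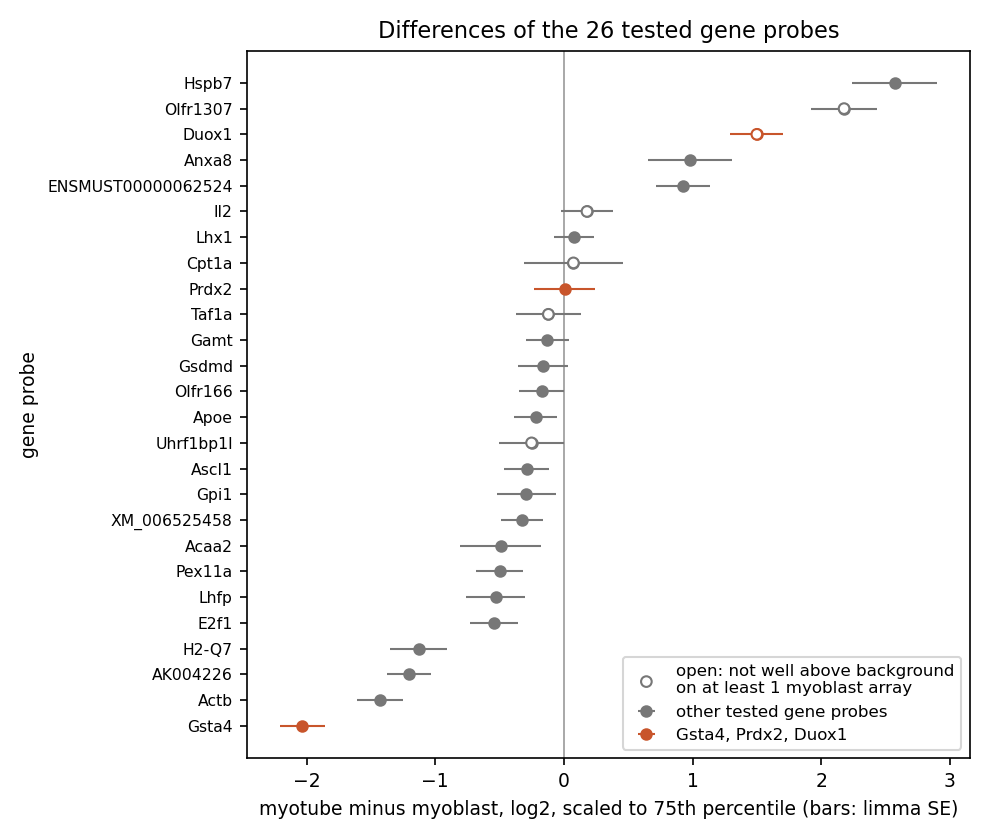
Scaled log2 difference, myotube minus myoblast, of the 26 tested gene probes, ordered by size, with bars for the SE from limma; the 3 redox enzymes are in orange, and open points were not well above background on at least 1 myoblast array, so their place in the order is not defined. Gsta4 is at the low end with -2.03, Prdx2 is at 0.0062, and Duox1 is an open point at its measured 1.50.

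The array gave little view of the rest of the redox system. Of 37 genes listed for the glutathione system, 22 for peroxide removal and 16 for NADPH oxidases and their partners, only Gsta4, Prdx2 and Duox1 had a probe, and of 23 further redox enzymes and NRF2 targets none had. The list of 11 peroxisome genes had Pex11a, a membrane protein of peroxisome division. Pex11a had processed signals of 93.5, 74.9 and 72.0 in myoblasts and 66.2, 97.3 and 83.8 in myotubes, which overlap, while its scaled values did not. Its scaled log2 difference was -0.50 (SE 0.18, limma adjusted p = 0.0553), so it did not pass the threshold, and unscaled it was 0.035. Over 20 alternatives the adjusted p ran from 0.0225 to 0.980 and passed the threshold in 4, among them the fit without myoblast 2 (limma adjusted p = 0.04998).

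The other gene probes with the most similar course over the 6 arrays were found by Pearson correlation of scaled log2 values among the 25 other tested probes. For Gsta4 these were the transcript AK004226 (r = 0.975) and Actb, cytoplasmic actin (r = 0.968). For Duox1 they were Hspb7 (r = 0.968) and the transcript ENSMUST00000062524 (r = 0.943). All these probes share the same 6 arrays and scaling, and each differs in level between the states. The Duox1 values include the myoblast arrays on which it was not well above background. For Prdx2 they were Taf1a, a subunit of the RNA polymerase I initiation factor (r = 0.830), and the annexin Anxa8 (r = 0.617); on unscaled values the order was reversed, with r = 0.968 for Anxa8 and 0.880 for Taf1a. Taf1a, like Prdx2, was highest on myotube 1 and lowest on myotube 3, and it was not well above background on myoblast 3.

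**Figure D5:**
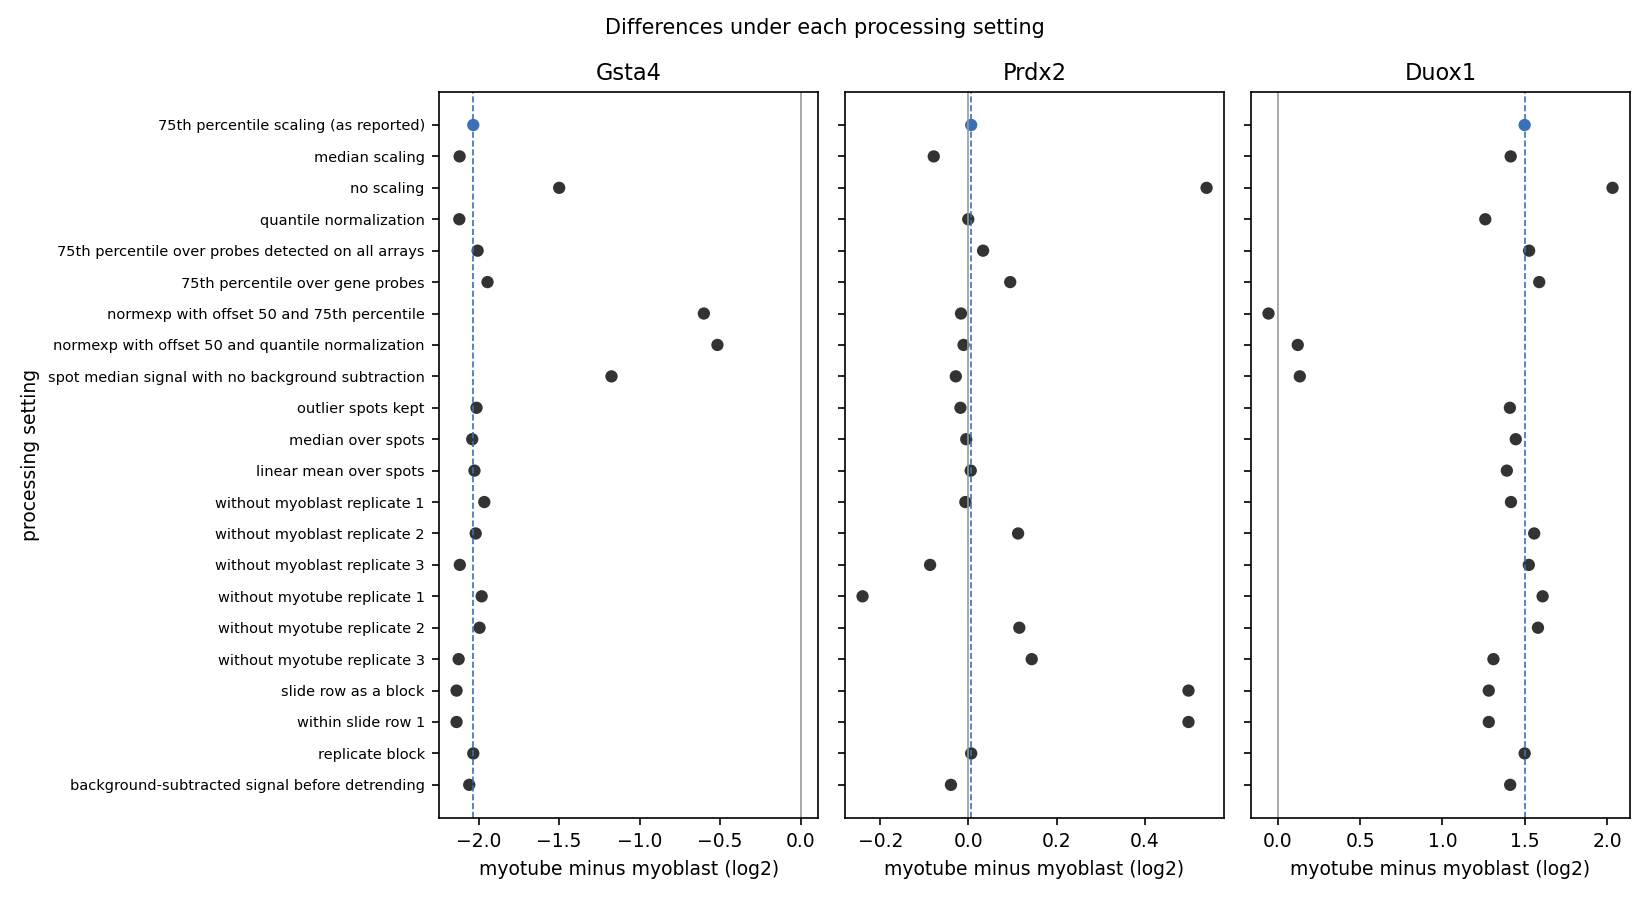
Log2 difference, myotube minus myoblast, of each gene under every processing setting, one row a setting; the dashed line marks the value as reported and each panel has its own axis range. Gsta4 stays below 0 in every row, Prdx2 lies on both sides of 0, and Duox1 stays above 0 except for -0.056 after normexp correction with the 75th percentile.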

How the data were processed

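Per the file headers, the 6 scanner tables came from Feature Extraction (version 11.0.1.1) and name build mm9; no coordinates are given. The deposited processed, spot and background signals are intensities on a linear scale, background-subtracted and detrended for the processed signal and not scaled between arrays. The deposited log2 value table of 11128 circRNA probes holds no gene probe and gave no value here.

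Symbols came from a RefSeq table of GRCm38.p6 by transcript (44 of 50 gene probes matched). Outlier-flagged spots were left out (10 of 180 spots of the 3 genes), log2 signals were averaged over spots, and the array's 75th percentile over non-control probes was subtracted. Gene probes well above background (at least 50% of spots) on all arrays of a group were fitted in R (4.3.3) by lmFit and eBayes of the package limma (3.58.1), and 2-sided p-values were adjusted by Benjamini-Hochberg at 0.05; circRNA probes were fitted separately. The fit was tested on simulated data. No spot of the 3 genes was saturated. The scanner tables hold no mean signal here, so normexp used the spot median.

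Named were the 3 genes, genes of the redox lists with a probe, the 2 most similar probes for each gene, and Hspb7. The genes and lists were chosen with earlier results of these data known. The labels do not say what a replicate number shares, so samples are taken as the design text gives them. The number of arrays limits the precision. Probe sequences were not analysed here, so what else each probe may bind was not tested.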

Additional observations from a re-analysis of the deposited data

How the results depend on the processing

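Some settings moved a difference by more than the SD between arrays of a group. For Gsta4 the log2 difference was -1.50 with no scaling, -1.17 with no background subtraction, and -0.60 and -0.52 after normexp correction with the 75th percentile or quantile normalization. For Duox1 these values were 2.03, 0.13, -0.056, a change of sign, and 0.12. For Prdx2 no scaling gave 0.54, and slide row as a block or the first slide row alone gave 0.50. These row settings are the same comparison, and only 1 myotube array lies in that row. The other settings moved no difference by more than the SD between arrays. Leaving out 1 array at a time gave -2.12 to -1.96 for Gsta4, -0.24 to 0.14 for Prdx2 and 1.31 to 1.61 for Duox1. Detected Duox1 spots in myoblasts numbered 0 of 28, 2 with outlier spots kept and 27 by the positive and significant flag. Pex11a changed sign to 0.035 with no scaling. The number of gene probes called was 10, and 6 after normexp correction with the 75th percentile, with 8 to 10 when 1 array was left out. The number of circRNA probes called was 3166, 1606 with slide row as a block, 1109 within the first row, and 2058 (without myotube 3) to 3058 when 1 array was left out. The causes were not tested. With a replicate block the differences were -2.03 (SE 0.18), 0.0062 (SE 0.23) and 1.50 (SE 0.18) for Gsta4, Prdx2 and Duox1, and 8 gene probes were called. Same-numbered arrays deviated together with correlations of -0.019, 0.020 and -0.084, and 0 of 6 arrays correlated best with its own number. With 3 arrays in a group, these values cannot show if same-numbered arrays are pairs. The numbers were not taken as pairs, since the labels do not say what a replicate number shares. Signal over background limits Duox1 in myoblasts.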
